A study of Tachysurus vachellii with 6 samples.

Results

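The miR-25, miR-92 and miR-363 miRNAs form a family with one seed, the stretch near the 5′ end that pairs with target mRNAs, and were followed here in extracellular vesicles of liver from the darkbarbel catfish, Pelteobagrus vachellii (Tachysurus vachellii). Members were the rows of the deposited miRNA table named miR-25, miR-92 or miR-363 after the species prefix, with any letter, arm or variant suffix. This gave 7 entries of 841 in all, each listed once. Vesicles were prepared from liver tissue of purchased fish that had been acclimated and fasted. In the hypoxia group, water was sealed and bubbled with nitrogen until the dissolved oxygen stood at 1.0 mg/L, and in the normoxia group it was 6.8 mg/L. Both groups were sampled at 4 h with 3 libraries each. Whether the 3 libraries of a group stem from different fish is not stated in the labels, so the p-values reflect no more than sample-to-sample spread, part or all of which may be technical.

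In mammals the family is made from 3 related gene clusters, called miR-17-92, miR-106a-363 and miR-106b-25, together with a separate miR-92b gene. The clusters are known for promoting cell growth and survival, and miR-92a is known in mice for restraining the growth of blood vessels. Because the members share a seed, they are expected to have overlapping targets, and the bases beyond the seed set them apart.

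The sequences of all 7 entries are shown because the shared seed and the few bases that tell the members apart decide how their counts can be read. They come from the deposited table, 5′ to 3′, with bases 2 to 8 in capitals. The prefixes dre, ccr and hsa are those used for miRNAs of zebrafish, common carp and human.
dre-miR-92a-3p: tATTGCACttgtcccggcctgt
dre-miR-92a-3p_R+2: tATTGCACttgtcccggcctgtat
dre-miR-92b-3p: tATTGCACtcgtcccggcctcc
ccr-miR-92b_R+2: tATTGCACtcgtcccggcctccat
ccr-miR-25: cATTGCACttgtctcggtctga
dre-miR-363-3p: aATTGCACggtatccatctgta
hsa-miR-25-5p_R+2: aGGCGGAGacttgggcaattgct

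The 3p strands, 6 entries, had the seed ATTGCAC, and hsa-miR-25-5p_R+2, from the opposite arm of the miR-25 hairpin, had GGCGGAG. The heptamer ATTGCAC occurred in 6 of the 874 distinct sequences of the table, at any position, and these were the 6 members with that seed. The families miR-32 and miR-367, which carry this seed in mammals, had 0 entries. Counted from 1 at the 5′ end and with the base of miR-92a-3p first, miR-92b-3p differed by T10C, G21C and T22C, and miR-25-3p (ccr-miR-25) by T1C, C14T, C18T and T22A. The miR-363-3p sequence differed from miR-92a-3p at 12 of 22 bases. Both entries ending in _R+2 among the miR-92 forms were the base sequence with AT added at the 3′ end.

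The miR-92a and miR-92b sequences are close enough that reads may have been divided between them. In 4 of the 6 libraries both miR-92a-3p and miR-92b-3p had fractional values, and in all 6 libraries their sum was whole within 1e-06, for example 64858.5 and 6581.5 counts in hypoxia replicate 2, which sum to 71440. All fractional values of the pair had the same remainder as in this example, with which any such values sum to a whole number. The whole sums therefore cannot show whether reads were divided between these entries or with another entry. Whether and how many reads were divided was not given in the sources used here, so the separate values of the pair are uncertain. miR-25-3p was whole in every library.

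Library totals ranged from 2038299 to 8497215 counts. Hypoxia replicate 1 was the shallowest, with 462 entries detected against 643 to 725 in the other 5 libraries, and results that rest on it are given with and without it. The entries of miR-122, the main hepatocyte miRNA, together stood at 215550 CPM or more in every library. CPM is the count relative to the library total, scaled by TMM factors. A count of 3 corresponded to 0.353 to 1.47 CPM on the unscaled totals.

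The family was abundant in the vesicles and was carried by 2 members, miR-92a-3p and miR-25-3p, at about the same level. Over the 6 libraries miR-92a-3p averaged 10996 CPM and miR-25-3p 10027 CPM, ranks 21 and 20 of all entries in normoxia and 19 and 23 in hypoxia. Which of them was higher varied between libraries, and their ranges overlapped. miR-92b-3p followed at 1288 CPM and rank 64 in normoxia and 63 in hypoxia, below the lowest value of either. The extended form of miR-92a-3p averaged 214 CPM and that of miR-92b-3p 12.7 CPM.

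**Figure D1:**
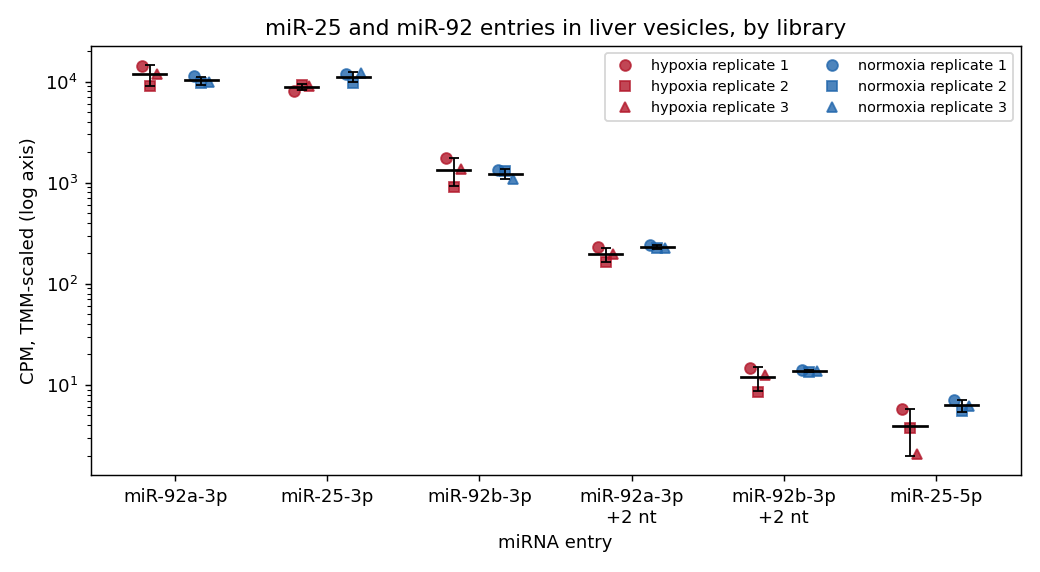
Level of each tested entry in CPM (log axis), with 1 symbol per library, red for hypoxia and blue for normoxia, and with black lines and bars for the mean and SD of 3 libraries. miR-92a-3p and miR-25-3p are the highest, and only for miR-25-3p do the 3 hypoxia libraries all lie below the 3 normoxia libraries.

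No member passed the test of hypoxia against normoxia. Of 6 members tested, 0 were called higher and 0 lower (edgeR quasi-likelihood test with Benjamini-Hochberg adjustment over all 519 entries tested, threshold 0.05), where 2.7% of all entries tested were called. DESeq2 and limma-voom also called 0 members. Before adjustment 1 member, miR-25-3p, had an edgeR p under 0.05, as did 18.5% of all entries tested. The median log2 fold change of the 6 was -0.23, beside -0.04 over all entries tested, with 4 of 6 members and 55.3% of all entries below 0. Without hypoxia replicate 2 the median of the 6 was -0.06.

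miR-25-3p was the member furthest from its normoxic level relative to its error. In hypoxia replicates 1, 2 and 3 it measured 8104, 9286 and 9135 CPM, and in normoxia replicates 1, 2 and 3 it measured 11868, 9676 and 12091 CPM. All hypoxia libraries lay below all normoxia libraries, with normoxia replicate 2 closest to the hypoxia range. The same order, groups apart and hypoxia lower, was seen in 14.3% of all entries tested. Hypoxia averaged 8842 ± 643 CPM and normoxia 11212 ± 1334 CPM (SD over 3 libraries each), a log2 fold change of -0.34 ± 0.12 (SE), which did not pass (edgeR, unadjusted p = 0.0152, adjusted p = 0.148). As a share of unscaled library totals the groups overlapped, at 0.948% in hypoxia replicate 3 and 0.944% in normoxia replicate 2. The separation in CPM thus depended on the scaling. Across all alternatives tried its log2 fold change lay between -0.47 and -0.24 and its adjusted p between 0.064 and 0.492.

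The other strand of the miR-25 hairpin, hsa-miR-25-5p_R+2, was rare. It had 12 to 60 counts per library, or 2.07 to 5.83 CPM in hypoxia and 5.46 to 7.13 CPM in normoxia, so the groups overlapped. Its log2 fold change was -0.79 ± 0.44 (edgeR adjusted p = 0.360), and -0.42 without hypoxia replicate 3. The 3p strand outnumbered it by 1389 to 4405 times in hypoxia and by 1664 to 1957 times in normoxia.

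miR-92a-3p did not show the order seen for miR-25-3p. In hypoxia replicates 1, 2 and 3 it stood at 14329, 8963 and 11916 CPM, against 11315, 9616 and 9837 CPM in normoxia replicates 1, 2 and 3. Hypoxia held both the highest and the lowest library, so the groups overlapped. The means were 11736 ± 2688 and 10256 ± 924 CPM, a log2 fold change of 0.19 ± 0.16 (edgeR adjusted p = 0.541). The value depended on single libraries, at 0.08 without hypoxia replicate 1 and 0.37 without hypoxia replicate 2, where it still did not pass (edgeR adjusted p = 0.836 and 0.068).

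miR-92b-3p ranked the hypoxia libraries in the same order as miR-92a-3p, but normoxia replicates 2 and 3 in the opposite order. It measured 1760, 910 and 1368 CPM in hypoxia replicates 1, 2 and 3, and 1319, 1295 and 1079 CPM in normoxia replicates 1, 2 and 3. Here too the hypoxia libraries spanned the normoxia range. The log2 fold change was 0.13 ± 0.21 (edgeR adjusted p = 0.775), and it was -0.056 without hypoxia replicate 1, so that no direction can be given.

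**Figure D2:**
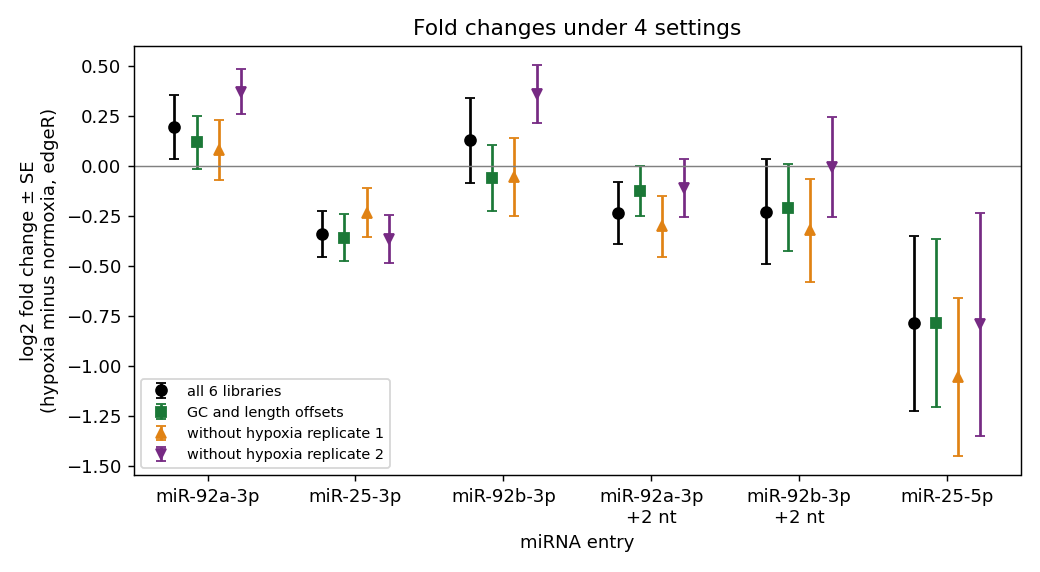
Log2 fold change of hypoxia over normoxia from edgeR for the 6 tested entries, with bars for the standard error, with all 6 libraries, with offsets for GC content and length, and with hypoxia replicate 1 or 2 left out. miR-25-3p stays between -0.37 and -0.24 in these 4 settings, while miR-92b-3p lies on both sides of 0.

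The rarest member, miR-363-3p, was not tested. It had 10 counts in normoxia replicate 1, or 1.19 CPM, and 0 counts in the other 5 libraries. A count of 0 allows up to 1.47 CPM in hypoxia replicate 1 and up to 0.415 to 0.538 CPM in the other 4 libraries. Since it was seen in 1 of 3 normoxia libraries, no difference between groups can be read from it.

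Summed over the 6 entries with the seed ATTGCAC, the groups overlapped. The sum measured 24437, 19333 and 22628 CPM in hypoxia replicates 1, 2 and 3, against 24759, 20824 and 23247 CPM in normoxia replicates 1, 2 and 3. Each group thus held high and low libraries, with replicate 2 the lowest in both. The sum took 1.93% to 2.47% of all counts in hypoxia and 2.03% to 2.45% in normoxia. The ratio of group means was -0.05 on the log2 scale, given with no test because it is a sum over chosen members.

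The make-up of this sum also varied between libraries, with the lowest miR-25-3p share in hypoxia replicate 1, the shallowest library. miR-25-3p supplied 33.2%, 48.0% and 40.4% of the same-seed counts in hypoxia replicates 1, 2 and 3, and 47.9%, 46.5% and 52.0% in normoxia replicates 1, 2 and 3. Hypoxia replicates 1 and 3 were below the normoxia range and hypoxia replicate 2 was inside it. The ratio of miR-92a-3p to miR-25-3p counts, which does not depend on how libraries are scaled, was 1.77, 0.965 and 1.30 in hypoxia and 0.953, 0.994 and 0.814 in normoxia, in replicate order. Its group means were 1.35 ± 0.40 and 0.920 ± 0.095 (SD, n = 3 each), and hypoxia replicate 2 lay within the normoxia range. On the log2 scale the ratio of these means was 0.55, and 0.30 without hypoxia replicate 1. The ratio of miR-92a-3p to miR-92b-3p was 8.14 to 9.85 in hypoxia and 7.43 to 9.12 in normoxia, ranges that overlapped.

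**Figure D3:**
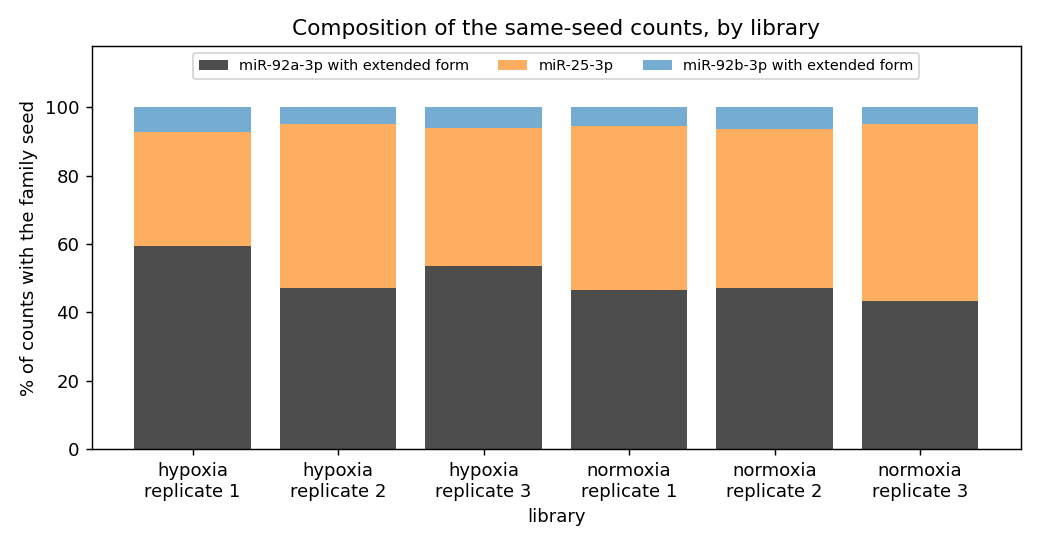
Share of the counts with the family seed that miR-92a-3p (with its extended form), miR-25-3p and miR-92b-3p (with its extended form) supplied in each library, in percent. miR-25-3p supplied between 33.2% and 52.0%, with its lowest shares in hypoxia replicates 1 and 3.

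The libraries also differed in how level moved with base composition, and the members differ in it. miR-25-3p has 50% GC, miR-92a-3p 54.5% and miR-92b-3p 63.6%. For each of the 329 entries that averaged 10 CPM or more, its mean log2 CPM over the 6 libraries was subtracted. The slopes are thus relative to the average library. Fitted jointly with length, this deviation changed per 10 points of GC by 0.107, -0.063 and 0.111 in hypoxia replicates 1, 2 and 3. In normoxia replicates 1, 2 and 3 the slopes were -0.009, -0.079 and -0.068. Hypoxia replicates 1 and 3 had the highest slopes and the highest miR-92a-3p and miR-92b-3p. The lowest levels were in hypoxia replicate 2, whose slope was above those of normoxia replicates 2 and 3. The part of GC content in these levels was not tested. Once offsets for GC content and length entered the fit, the log2 fold change of miR-92b-3p was -0.062 ± 0.163, that of miR-92a-3p 0.12 ± 0.13 and that of miR-25-3p -0.36 ± 0.12. None passed (edgeR adjusted p = 0.872, 0.659 and 0.170).

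**Figure D4:**
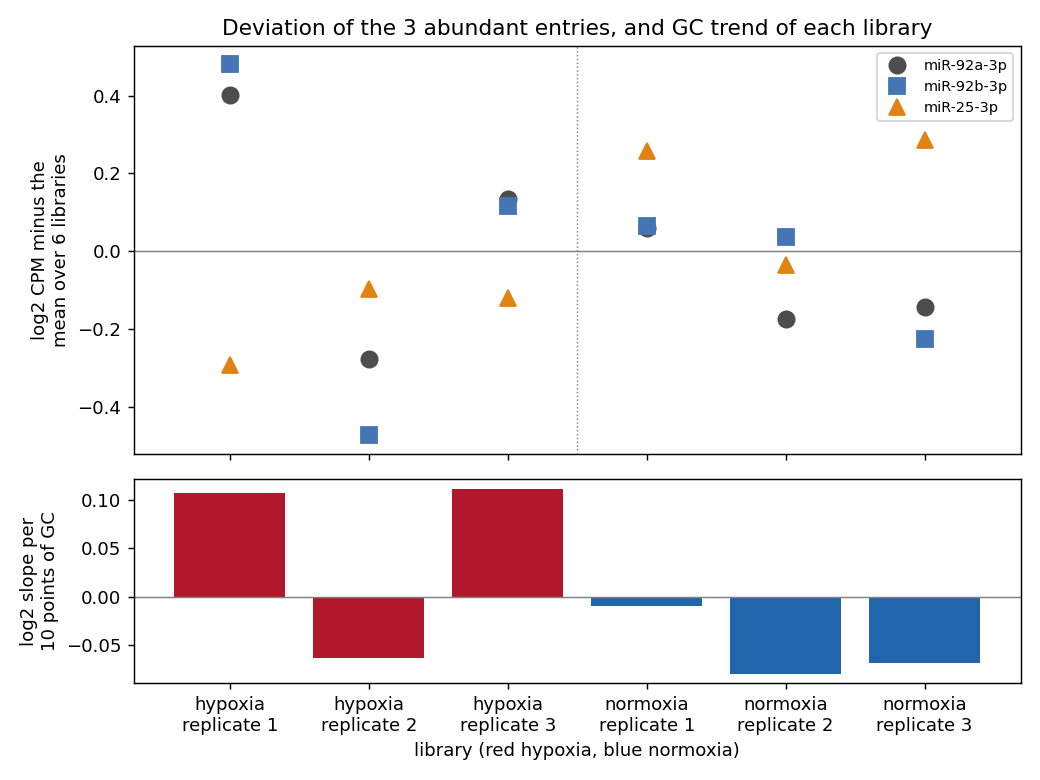
Upper panel, log2 CPM of the 3 abundant members in each library minus the mean of that member over the 6 libraries. Lower panel, slope of such deviations per 10 points of GC in the same library, over entries that averaged 10 CPM or more. Red is hypoxia and blue is normoxia. miR-92a-3p and miR-92b-3p lie highest in hypoxia replicate 1 and lowest in hypoxia replicate 2, while miR-25-3p lies highest in normoxia replicates 1 and 3.

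The 3′ extended forms offered a comparison within each miRNA. dre-miR-92a-3p_R+2 had 470, 1196 and 1228 counts in hypoxia replicates 1, 2 and 3, and 2042, 1313 and 1244 in normoxia replicates 1, 2 and 3. Of the base plus extended counts this was 1.57%, 1.81% and 1.62% in hypoxia and 2.10%, 2.28% and 2.25% in normoxia. The highest hypoxia value, in replicate 2, had a 95% Wilson interval of 1.71% to 1.92%, and the lowest normoxia value, in replicate 1, one of 2.01% to 2.19%. The groups were therefore apart by more than counting error, with means of 1.67 ± 0.13% and 2.21 ± 0.09% (SD, n = 3 each, two-sided exact permutation p = 0.1, the smallest this design allows).

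The extended form of miR-92b-3p showed the same order at lower counts. ccr-miR-92b_R+2 had 30 to 79 counts per library in hypoxia and 75 to 117 in normoxia, which made 0.822%, 0.918% and 0.913% of its base plus extended counts in hypoxia replicates 1, 2 and 3. In normoxia replicates 1, 2 and 3 the shares were 1.04%, 1.02% and 1.25%. The groups were apart (means 0.884 ± 0.054% and 1.10 ± 0.13%, SD, n = 3 each, two-sided exact permutation p = 0.1), but the Wilson intervals of single libraries overlapped, for example 0.716% to 1.18% in hypoxia replicate 2 and 0.817% to 1.27% in normoxia replicate 2. Benjamini-Hochberg adjustment over these 2 shares leaves the permutation p at 0.1 because both values are equal, so it adds nothing. The shares were chosen after seeing the data, and this adjustment does not cover that choice. PCR reads without molecular identifiers are not independent molecules, so the intervals cover counting error only. Nor do they cover reads that may have been divided between the base forms of miR-92a-3p and miR-92b-3p, in unknown number.

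A lower share of the longer form in hypoxia was also seen in some pairs elsewhere in the table. Outside the family, 70 pairs of tested entries with known names were found in which one sequence was another with extra bases at the 3′ end. Such pairs can share a sequence with one another, and some join entries named for different miRNAs, such as dre-miR-107a-3p_R-2 and ccr-miR-103. In 13 of them (18.6%) the hypoxia shares all lay below the normoxia shares, and in 1 (1.43%) all above. Among the 28 outside pairs with 2 extra bases these numbers were 4 and 1. The mean share was lower in hypoxia in 42 of the 70 pairs and in 15 of the 28. Library trends on length were fitted to log2 CPM minus each entry's mean over the 6 libraries, as for GC. They were -0.007, -0.066 and -0.031 log2 units per nucleotide in hypoxia replicates 1, 2 and 3 and 0.080, 0.042 and -0.018 in normoxia. These slopes overlapped between the groups, with normoxia replicates 1 and 2 above all hypoxia libraries and normoxia replicate 3 inside the hypoxia range. Within hypoxia the library with the lowest slope, replicate 2, had the highest share of extended miR-92a-3p. With the GC and length offsets the log2 fold change moved from 0.19 to 0.12 for miR-92a-3p and from -0.24 to -0.13 for its extended form. For the miR-92b-3p pair the values moved from 0.13 to -0.062 and from -0.23 to -0.21. In both pairs the base and extended forms lay closer together after the offsets. The offsets shift every entry by its length and GC content, so this closing follows from the library slopes. It gives no separate information on the shares. The part of length trends in the shares was not tested.

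**Figure D5:**
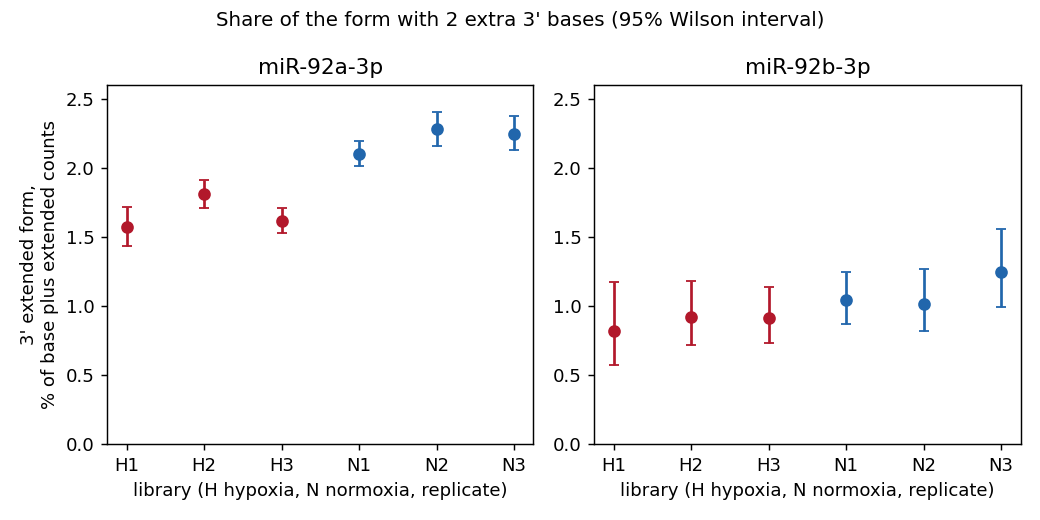
Share of the form with 2 extra 3′ bases, in percent of base plus extended counts, for miR-92a-3p (left) and miR-92b-3p (right) in each library, with 95% Wilson intervals. All 3 hypoxia libraries lie below all 3 normoxia libraries in both panels, with intervals apart for miR-92a-3p and overlapping for miR-92b-3p.

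As levels on their own, the extended forms did not pass. dre-miR-92a-3p_R+2 measured 228, 165 and 196 CPM in hypoxia replicates 1, 2 and 3 and 243, 224 and 226 CPM in normoxia replicates 1, 2 and 3. Hypoxia replicate 1 lay inside the normoxia range and the other two below it, at a log2 fold change of -0.24 ± 0.15 (edgeR adjusted p = 0.450). This was -0.11 without hypoxia replicate 2, -0.15 without normoxia replicate 1 and -0.13 with GC and length offsets. ccr-miR-92b_R+2 measured 14.6, 8.43 and 12.6 CPM in hypoxia and 13.9, 13.3 and 13.6 CPM in normoxia, in replicate order. Its hypoxia libraries spanned the normoxia range, at a log2 fold change of -0.23 ± 0.26 (edgeR adjusted p = 0.687), which was -0.004 without hypoxia replicate 2.

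Families that share these clusters in mammals were compared as a list chosen by family number, and how the genes are arranged in the catfish was not checked. The families miR-17, miR-18, miR-19, miR-20, miR-93 and miR-106 had 29 entries, of which 21 were tested. Of these 0 rose, 1 fell and 20 did not pass (edgeR adjusted p under 0.05), where 1.54% of all entries tested were called higher and 1.16% lower. Their median log2 fold change was -0.20, with 19 of 21 below 0 beside 55.3% of all entries tested. The median was -0.09 without hypoxia replicate 1, -0.36 without hypoxia replicate 3 and -0.33 with the replicate block. The one that fell, gmo-miR-20a-5p, had a log2 fold change of -0.79 ± 0.15 (edgeR adjusted p = 0.0494). It did not pass with total counts only, with rows of different sequence never joined, with GC and length offsets, or when any library other than hypoxia replicate 2 was left out. Its log2 fold change in those settings was -0.83 to -0.63 (edgeR adjusted p from 0.055 to 0.235). It passed in the other 9 of 17 alternatives, among them DESeq2 (adjusted p = 0.00019) and limma-voom (adjusted p = 0.022).

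Of the cluster partners, miR-93 shares the miR-106b-25 cluster with miR-25 in mammals. hsa-miR-93-5p_2ss1CA13CT measured 1493, 1482 and 1534 CPM in hypoxia replicates 1, 2 and 3, and 1899, 2095 and 1937 CPM in normoxia replicates 1, 2 and 3. In CPM, as for miR-25-3p, all hypoxia libraries lay below all normoxia libraries. Its log2 fold change was -0.40 ± 0.11, which did not pass with edgeR (adjusted p = 0.085) and passed with DESeq2 (log2 fold change -0.40, adjusted p = 0.0017). The miR-106 entry oni-miR-106_R-1 had a log2 fold change of 0.08 ± 0.16 and did not pass. Its sequence is that of oni-miR-17a_R+1_1ss1CT without the last base. It therefore cannot be told apart from a shorter miR-17 and is no clear partner of miR-25.

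Of the partner families joined with miR-92a in the mammalian miR-17-92 cluster, miR-20 held the entry that fell, gmo-miR-20a-5p. The most abundant entries of the others, miR-17, miR-18 and miR-19, did not pass. They were ipu-mir-17b-p5 at a log2 fold change of -0.18 ± 0.14, dre-miR-18a_R-2_1ss11CT at 0.35 ± 0.20 and dre-miR-19c-3p_R-1_2ss9TC22CG at -0.04 ± 0.12. The last of these changed sign with total counts only and with upper-quartile scaling. miR-17, miR-20, miR-93 and miR-106 sequences are close to one another and their reads may have been divided, so their separate values are uncertain.

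Markers of other cell types were measured in the same libraries. Erythrocyte miRNAs (miR-144, miR-451 and miR-486, 8 entries, 2 of 7 tested called higher) summed to 7203 to 9174 CPM in hypoxia and 4842 to 5917 CPM in normoxia. Over all entries tested 1.54% were called higher. The endothelial family miR-126 (5 entries, 0 of 4 tested called) summed to 15768 to 17733 CPM in hypoxia and 11829 to 13516 CPM in normoxia. Both sums were higher in every hypoxia library than in any normoxia library, an order seen in 11.8% of all single entries tested. Within the erythrocyte list miR-486, the rarest family, ran the other way, at 7.78, 11.3 and 12.1 CPM in hypoxia replicates 1, 2 and 3 and 18.4, 13.1 and 31.99 CPM in normoxia replicates 1, 2 and 3. miR-92a is also among the miRNAs of human red blood cells. The erythrocyte sum was 7452, 9174 and 7203 CPM in hypoxia replicates 1, 2 and 3, where miR-92a-3p stood at 14329, 8963 and 11916 CPM. In normoxia replicates 1, 2 and 3 the sum was 5917, 5232 and 4842 CPM, and miR-92a-3p stood at 11315, 9616 and 9837 CPM.

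The other lists overlapped between groups. Hepatocyte miRNAs (miR-122, miR-192 and miR-194, 17 entries, 0 of 11 tested called) summed to 238952 to 288063 CPM in hypoxia and 278889 to 290079 CPM in normoxia. Leukocyte miRNAs (miR-142, miR-150, miR-155 and miR-223, 7 entries, 0 of 6 tested called) summed to 3667 to 4026 and 3552 to 4262 CPM. No marker family was at 0 in any library. The part of these cells in the levels of the family was not tested, and fewer vesicles of a cell type cannot be told apart from less miRNA per vesicle.

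Outside the family, the entries whose levels ran closest to miR-92a-3p over the 6 libraries were mmu-mir-6236-p3_1ss8AG, hsa-miR-199a-5p and ccr-miR-205_R+1. Likeness was the root mean square difference of log2 CPM after subtracting each entry's mean over the 6 libraries, among the 169 tested entries that averaged 100 CPM or more. The differences were 0.046, 0.095 and 0.095 log2 units, against a median of 0.284 over the 169. Within the family, miR-92b-3p lay at 0.127 from miR-92a-3p and 8 of the 169 entries were closer. miR-25-3p lay at 0.369, with 132 of them closer. miR-199a is a miRNA of stromal cells and miR-205 one of epithelia. The libraries' shared trends, GC content among them, enter this measure.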

How the data were processed

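Small RNA of liver vesicles was sequenced on a NovaSeq X Plus with adapters ligated at both ends and PCR, per the labels' protocols. The authors deposited 1 table of estimated counts, not scaled between libraries, in 1088 rows with a name and a sequence each. The aligner, miRNA caller, genome build and filters were not given in the sources used here. Of nonzero values, 70.0% were whole as listed (within 1e-06). Listings of 1 sequence were summed, and 18 cases of the same precursor with identical values under different sequences were joined, which gave 841 entries with 89.0% of nonzero values whole. An entry carries its first listed name.

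Estimated counts were rounded, filtered with filterByExpr, scaled by TMM and tested with edgeR 4.0.16 (glmQLFit and glmQLFTest, hypoxia against normoxia, no block) over 519 entries, with Benjamini-Hochberg adjustment, in R 4.3.3. Standard errors were derived from each log2 fold change and its F statistic. DESeq2 1.42.0 and limma 3.58.1 (voom) were alternatives, beside other scalings, filters, listing rules, GC and length offsets, a replicate block and each library left out. Shares and exact permutation tests were computed in Python 3.11.15, and Wilson intervals with scipy 1.17.1. Log2 CPM for trends and likeness had a prior count of 2.

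The members, lists and alternatives were chosen with earlier results of these data known. The 3′ extended shares and the ratio of miR-92a-3p to miR-25-3p were chosen after seeing the data. Members with a mean of at least 10 CPM are given library by library. Of the cluster partners, called entries and the most abundant entry of each family are named.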

Additional observations from a re-analysis of the deposited data

How the results depend on the processing

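In all 17 alternatives 0 members were called. The number with an unadjusted p under 0.05 was 0 without normoxia replicate 1 or 3, 3 without hypoxia replicate 2, 2 with limma-voom and 1 in the others. Without hypoxia replicate 1 that member was hsa-miR-25-5p_R+2 (edgeR unadjusted p = 0.028), while miR-25-3p had an edgeR unadjusted p of 0.094. miR-92b-3p changed sign with GC and length offsets (-0.062) and over libraries left out (-0.056 to 0.36). The other 5 tested members kept their direction in every alternative that tested them. dre-miR-19c-3p_R-1_2ss9TC22CG changed sign with total counts only (0.0081), with upper-quartile scaling (0.020) and over libraries left out (-0.065 to 0.052), and oni-miR-106_R-1 over libraries left out (-0.0011 to 0.20). The cause was not tested.

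Over all entries, 8 were called higher and 6 lower. These counts were 5 and 0 with total counts only, 10 and 3 with upper-quartile scaling, 27 and 24 with DESeq2, 15 and 7 with limma-voom and 33 and 26 with no filter on low counts. They were 3 and 0 both with GC and length offsets and with rows of different sequence never joined, and 4 and 3 with the replicate block. With 1 library left out, 0 to 28 were called higher and 0 to 24 lower. The highest counts came without hypoxia replicate 2.

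Correlations showed no pairing of samples by replicate number, but with 3 libraries per group they cannot settle it. Deviations from group means correlated at -0.129, -0.055 and -0.046 for the same number in both groups. With the replicate block miR-25-3p had a log2 fold change of -0.34 and miR-92a-3p one of 0.17, neither called. The log2 ratio of the 3′ extended share lay at -0.47 to -0.37 for miR-92a-3p and -0.37 to -0.22 for miR-92b-3p with 1 library left out. Depth limits miR-363-3p and miR-25-5p most, and hypoxia replicate 1 is the shallowest library.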
